A study of Mus musculus with 12 samples.

Results

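The comparison of PNU-282987 (PNU) with its solvent DMSO after 6 h of co-culture is described here across all genes measured at that time. The genes taken are those with at least 1 CPM (the counts of a gene scaled to the total of its library) in 3 or more of the 6 libraries of 6 h, which are 12798 of the 49315 genes in the count tables. The choice uses the level of a gene, but a gene that is low in one group can enter through the other: 61 members reached this level in all PNU libraries and no DMSO library and 47 the reverse, and such genes had to differ between the groups. Of these 108 members 15 are among the called genes below. They include Adipoq, Cyp1a1 and Fstl4, which reached the level with DMSO only. Sema5b, Asb5, Cd93 and Oacyl reached it with PNU only.

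Both groups were primary cells labelled as Müller glia from the retina of WT (wild-type) mice. They had been grown in transwell plates beside primary retinal pigment epithelium (RPE) cells, so that the cell types shared medium but not contact. In the PNU group the RPE cells had been given 100 nM PNU-282987 and in the DMSO group the solvent alone, and RNA was taken from the cultures labelled as glia after 6 h, with 3 libraries per group. The comparison asks whether RPE cells exposed to the agonist alter expression in the neighbouring cells. All cultures had been passaged, 4 times per the design text, and the solvent is given as 0.1% in one protocol and 1% in another. The titles call the samples biological replicates but name no animals or cultures, so the p-values reflect the spread among these samples alone, which may be technical. In cultures of this kind fewer cells of a type and less RNA per cell cannot be told apart.

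PNU-282987 is a selective agonist of the α7 nicotinic acetylcholine receptor, a ligand-gated cation channel with high calcium permeability that is encoded by Chrna7. Müller glia span the retina, recycle glutamate and buffer potassium, and in fish they return to a progenitor state and replace lost neurons. In mammals this response is limited, and growth factors such as the EGF receptor ligands, together with Wnt, Notch and ERK signalling, are known to influence it.

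The 6 libraries held 44332013 to 64327462 counts, and 3 counts, taken as the floor of detection, were 0.0466 to 0.0677 CPM, which covers counting error only. The 3 DMSO libraries were nearly identical, with coefficients of variation between pairs of 0.0163 to 0.0217, and so were PNU replicates 2 and 3 (0.0223). PNU replicate 1 differed from them by 0.277 and 0.279. The near-identical pairs still differed by more than sampling noise (chi-square per degree of freedom 2.1 to 3.47), which does not show that they are separate cultures. Each library was nevertheless counted as 1 sample, and counts with such libraries summed are given beside the first result. Over all members, the root mean square log2 distance of PNU replicate 1 was 0.347 to 0.351 from the DMSO libraries and 0.504 to 0.506 from the other PNU libraries. For the Y-linked gene Ddx3y the levels were 0.141, 7.43 and 6.74 CPM (PNU replicates 1 to 3), against 0.0451, 0.0378 and 0.141 CPM with DMSO. Effects of PNU at 6 h and differences among cultures therefore cannot be told apart. Values below are CPM in the order of replicates 1, 2 and 3 of each group, ± gives the SE of a log2 fold change, and list members that did not pass are examples chosen after their values were seen.

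The name Müller glia rests on the labels. Over the 6 libraries Vim, the filament protein vimentin that glia share with mesenchyme, ranged from 6397 to 7451 CPM and Glul, the glutamine synthetase of Müller glia, from 66.2 to 94.4 CPM. Rlbp1, the retinaldehyde-binding protein of these cells, reached at most 0.302 CPM, Gfap, the filament of reactive glia, at most 0.158 CPM, and Slc1a3, their glutamate transporter, 3.72 CPM in PNU replicate 1 and at most 1.38 CPM elsewhere. Col1a1, a chain of the main fibrillar collagen of fibroblasts, ranged from 3509 to 4166 CPM, and Pdgfrb, a receptor of pericytes and fibroblasts, from 944.5 to 1391 CPM. Rpe65, the isomerase that defines RPE cells, reached at most 0.0351 CPM, under the floor of detection. Among 22 markers listed for Müller glia 13 were members and 0 passed the test (edgeR; 3 at an unadjusted p under 0.05, 2 in DESeq2 and 0 in limma-voom).

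With PNU at 6 h, 82 members rose and 78 fell. The largest rise was that of Igfbp2, a binding protein of insulin-like growth factors, and the steepest falls among genes at 5 CPM or more were those of Kcp, a secreted regulator of BMP signalling, and Penk, the enkephalin precursor. Growth factor induced transcription factors (Fos, Egr1, Ier2) and the choline transporter Slc5a7 fell, while the semaphorin receptor Plxna4 and the vascular growth factor receptor Flt4 were among the risen genes. A gene is called risen or fallen here at an adjusted p under 0.05 in edgeR's quasi-likelihood test over all 17164 genes tested in the 12 libraries of the series, of which 1.05% were called, 0.571% higher and 0.484% lower. Among members the shares were 0.641% and 0.609%, and 2053 members (16%) had an unadjusted p under 0.05. DESeq2 called 757 of the 12798 members and limma-voom 159. The median log2 fold change was -0.01 over the members.

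All 160 called members had their 3 PNU libraries on one side of the 3 DMSO libraries. Such a lack of overlap was common, since 14.8% of members lay wholly above and 25.2% wholly below DMSO. The fold change was at least 2-fold for 71 of the 160, with 45 risen and 26 fallen. With near-identical libraries pooled, which leaves 1 DMSO sample and 2 PNU samples at 6 h, so that the lone DMSO sample is assumed to vary like the other groups, the edgeR count was 0, 267 genes had an unadjusted p under 0.05, and 137 of the 160 members were among them. That overlap is no support for the calls, since the pooled fit uses the same counts. Leaving out any 1 of the 6 libraries moved the count of 181 called genes by over 1.5 times. The count rose to 1057 when PNU replicate 1 was omitted, and fell to 38 and 35 without PNU replicates 2 and 3 and to 35, 22 and 26 without DMSO replicates 1, 2 and 3. A fit of the 6 libraries alone called 1646 genes, one without DMSO replicate 3 of 2 h, which stands apart from its group, called 1606, and DESeq2 called 917. Without both PNU replicate 1 of 6 h and that 2 h library, a setting added after seeing the data, the count was 4981.

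PNU replicate 1 lay nearer to DMSO for most genes that stood far from it in the other PNU libraries, but less so for the called ones. At least 2-fold above the DMSO mean were 164 members in PNU replicate 1, 304 in replicate 2 and 297 in replicate 3, and at least 2-fold below it were 114, 380 and 377. Of the 596 members at least 2-fold from the DMSO mean on the same side in both replicates 2 and 3, 443 were less than 0.5 as far from it on the log2 scale in replicate 1, and 133 lay on the opposite side. The median ratio of these distances was 0.252. For the 160 called members it was 0.813, and 0 lay on the opposite side, although this follows in part from the test, which favours genes with PNU libraries that agree. For 60 called members (29 risen, 31 fallen) the ratio was between 0.8 and 1.25, so that all PNU libraries differed from DMSO to a like degree. Across the members the first principal component, with 75.3% of the variance, placed PNU replicate 1 at -9.85, the DMSO libraries between -21.6 and -21.1 and the other PNU libraries at 36.8 and 37.0. The second, with 18.8%, held PNU replicate 1 at -29.1 and all others between 2.79 and 8.11.

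**Figure D1:**
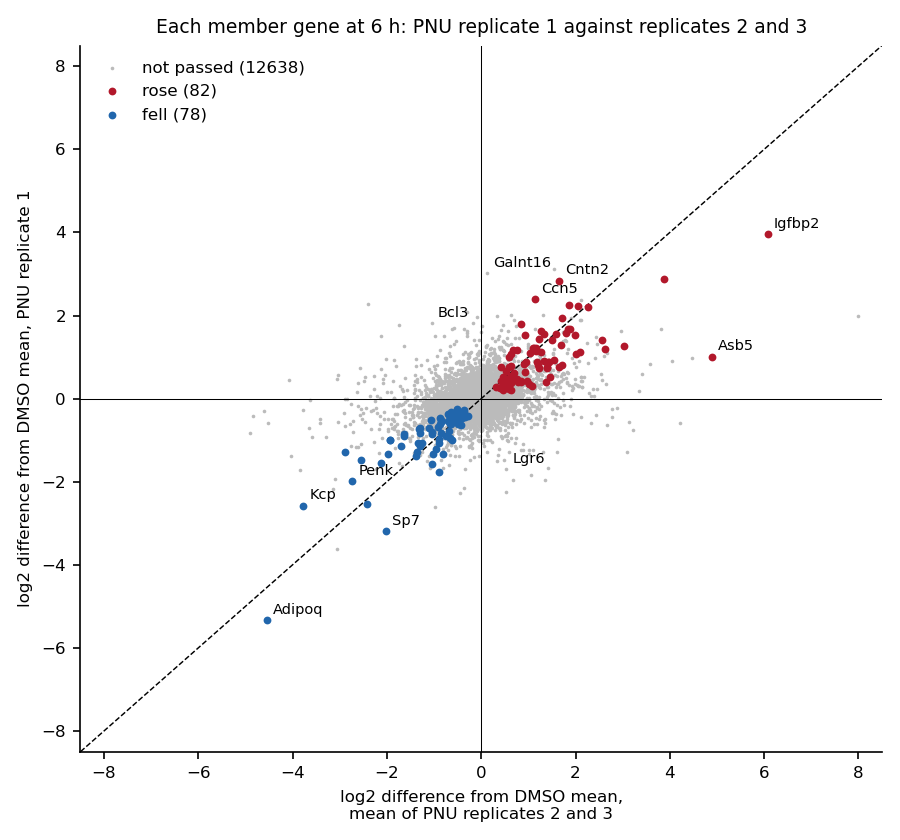
Each point is 1 member gene, with the log2 difference from the DMSO mean averaged over PNU replicates 2 and 3 on the x axis and that of PNU replicate 1 on the y axis; red and blue points are the 82 risen and 78 fallen genes, and the dashed line marks equal differences. Of the 160 called genes 60 lie near the dashed line (ratio 0.8 to 1.25), while over the 596 genes at least 2-fold from DMSO in both replicates 2 and 3, called genes included, the median ratio is 0.252.

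Igfbp2, which binds insulin-like growth factors outside the cell (ENSMUSG00000039323, GRCm38 chr1:72824503-72852474), stood at 49.4, 209.8 and 218 CPM with PNU and at 3.25, 2.72 and 3.47 CPM with DMSO. All PNU libraries were far above all DMSO libraries, and replicate 1 was the lowest of them. The log2 fold change was 5.67 ± 0.78 (SE; adjusted p = 0.00929). Of the 18 members in the list of insulin-like growth factors, receptors and binding proteins, Igfbp2 rose and 17 did not pass. The ligands Igf1 and Igf2 stood at 6.24, 17.5 and 15.3 CPM and at 4.85, 16.0 and 17.3 CPM with PNU, against 5.23, 5.84 and 5.87 CPM and 4.89, 5.12 and 4.95 CPM with DMSO, so that only replicates 2 and 3 were well above DMSO. The receptor Igf1r stood at 204 to 227 CPM in all 6 libraries.

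Several of the largest rises were small in PNU replicate 1. Asb5, an adaptor of ubiquitin ligases found in muscle, stood at 1.70, 27.2 and 24.7 CPM with PNU and at 0.793 to 0.857 CPM with DMSO (log2 4.45 ± 0.80). Wnt4, a Wnt ligand, stood at 2.86, 9.64 and 9.78 CPM against 1.08 to 1.26 CPM (2.70 ± 0.48). Ctnnd2, the neural δ-catenin of cell junctions, at 3.88, 10.5 and 10.7 CPM against 1.59 to 1.78 CPM (2.33 ± 0.45), and Vgf, a neuropeptide precursor, at 4.20, 9.72 and 9.08 CPM against 1.29 to 1.74 CPM (2.30 ± 0.36), had the same order. Slc22a23, a member of the organic ion transporter family, stood at 3.72, 7.85 and 6.98 CPM against 1.57 to 1.83 CPM. In each of these genes replicate 1 was the lowest PNU library but above all DMSO libraries. For Asb5 its log2 distance from DMSO was 0.21 of that of the other PNU libraries.

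Other risen genes were alike in the 3 PNU libraries or highest in replicate 1. Parm1, a mucin-like membrane protein (ENSMUSG00000034981, chr5:91517615-91626894), stood at 78.9, 67.3 and 67.1 CPM with PNU and at 27.8, 26.5 and 26.1 CPM with DMSO, and its adjusted p of 8.76e-05 was the smallest of all members (log2 1.42 ± 0.09). Kif26b, a kinesin-like protein, stood at 7.52, 8.57 and 8.45 CPM against 2.17, 2.31 and 2.54 CPM. Flt4, the receptor VEGFR3 of lymphatic endothelium, stood at 7.85, 8.27 and 7.85 CPM against 2.57, 2.65 and 2.70 CPM. In these genes the groups were well apart and the PNU libraries close together. Cntn2, an axonal adhesion molecule, stood at 45.6, 18.5 and 21.4 CPM against 5.76 to 6.75 CPM, and Ccn5, a matricellular protein of the CCN family, at 217.5, 89.4 and 93.1 CPM against 40.5 to 42.0 CPM. Both were highest in replicate 1, by more than 2-fold over the other PNU libraries.

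Csf1r, the receptor of colony stimulating factor 1 on macrophages and microglia, rose by 1.81 ± 0.29 on the log2 scale, with 8.45, 7.42 and 7.05 CPM against 1.99, 1.91 and 2.71 CPM. In the macrophage and microglia list it was the 1 of 12 genes that rose, 3 were members, and the summed level was 12.5 to 21.7 CPM with PNU and 10.1 to 11.3 CPM with DMSO. Of the other list members, Trem2, a receptor of microglia, lay wholly below DMSO without passing (5.27, 2.75 and 2.74 CPM against 5.63 to 6.41 CPM), and Cd68, a lysosomal protein of macrophages, overlapped (2.53, 2.11 and 2.29 CPM against 1.96 to 2.504 CPM). Ptprc (CD45), the marker that defines leukocytes, reached at most 0.235 CPM, and Aif1 at most 0.158 CPM. The complement genes C1qa, C1qb and C1qc, which macrophages make, stood at 1.95, 1.02 and 1.37 CPM in PNU replicate 1 and at most 0.0352 CPM in the other 5 libraries. The part of such cells in the rise of Csf1r was not tested.

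**Figure D2:**
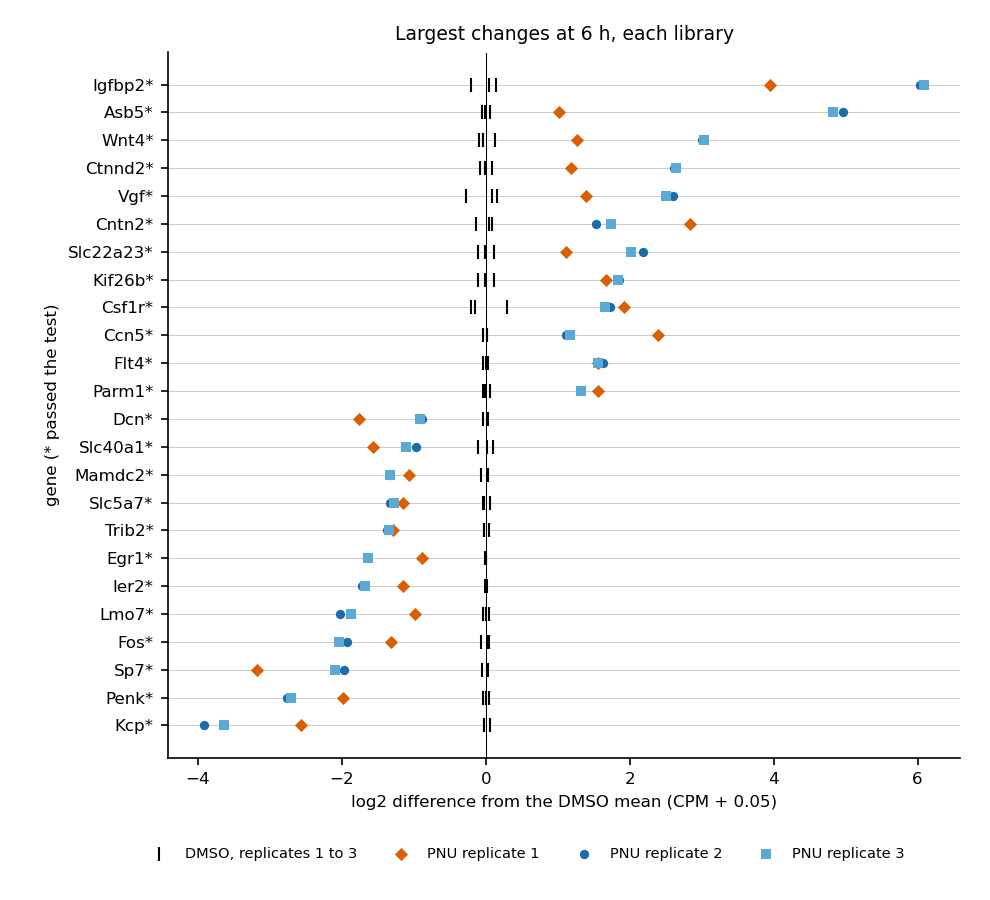
Log2 difference from the DMSO mean (x axis) of the 12 risen and 12 fallen genes of largest fold change at a mean of 5 CPM or more (y axis), with black ticks for DMSO libraries and a marker for each PNU library. No PNU library overlaps DMSO; replicate 1 is the nearest PNU library to DMSO for Igfbp2 and Asb5 and the farthest for Cntn2, Ccn5, Sp7 and Dcn.

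Among the fallen genes, Kcp stood at 2.51, 0.964 and 1.18 CPM with PNU and at 15.8, 15.0 and 14.9 CPM with DMSO, a log2 fold change of -3.28 ± 0.49. Penk (ENSMUSG00000045573, chr4:4133531-4138819) stood at 9.50, 5.55 and 5.74 CPM against 37.8, 36.6 and 39.0 CPM (-2.43 ± 0.29, adjusted p = 0.00447). Every PNU library held less than any DMSO library by far in both genes. Sp7, the osteoblast transcription factor osterix, stood at 1.69, 3.98 and 3.65 CPM against 16.1, 15.1 and 15.9 CPM, with replicate 1 the lowest. Lmo7, a LIM-domain protein of cell junctions, stood at 6.55, 3.17 and 3.53 CPM against 12.6 to 13.5 CPM. Trib2, a pseudokinase that acts as a scaffold for protein degradation, stood at 17.9, 16.8 and 17.2 CPM against 43.1, 43.1 and 44.9 CPM. Slc40a1, the iron exporter ferroportin, fell by 1.196 ± 0.20 on the log2 scale, from 5.61 to 6.52 CPM down to 2.02, 3.08 and 2.79 CPM, and Mamdc2, a matrix-associated protein, fell by 1.23 ± 0.21. Adipoq, the adipocyte hormone adiponectin, was near the floor of detection with PNU (0, 0.0155 and 0.0627 CPM) and stood at 1.87, 2.21 and 1.83 CPM with DMSO, and no fold is given.

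Abundant genes moved by smaller folds. The most abundant risen members were Prss23, a secreted serine protease, at 973.6, 1317 and 1272 CPM against 712.7, 724.6 and 732.1 CPM, and Tns1, the focal adhesion protein tensin 1, at 1013, 776.7 and 808.6 CPM against 592.8 to 600.0 CPM. Itgb5, the integrin β5 chain, stood at 663.4, 688 and 720.2 CPM against 439.5, 436.4 and 428.4 CPM, with PNU libraries close together. Palld (log2 0.32 ± 0.07) and Phldb2 (0.50 ± 0.10), proteins of the actin cytoskeleton and of cell attachment, rose too, as did Loxl2, a collagen cross-linking oxidase, at 165.5, 323.2 and 327.8 CPM against 123.5 to 127.4 CPM. Sap18, a subunit of a histone deacetylase complex, rose by 0.56 ± 0.08, Tmbim1 by 0.37 ± 0.07, Mknk2, a kinase of the translation factor eIF4E, by 0.44 ± 0.09, and Mcam, an adhesion molecule of pericytes and endothelium, by 0.47 ± 0.08. The most abundant fallen member was Col15a1, a basement membrane collagen, at 420.5, 275.6 and 284.3 CPM against 695.4, 692.5 and 696.0 CPM. Pkd2, the calcium-permeable channel polycystin 2, stood at 314.6, 304.4 and 300.5 CPM against 451.9 to 458.9 CPM, and Sema3c, a secreted semaphorin, at 245.5, 246.0 and 239.2 CPM against 429.1 to 444.5 CPM. Emilin2 (-0.72 ± 0.15), an elastic fibre glycoprotein, Adgra2 (-0.52 ± 0.11), an adhesion G protein-coupled receptor, Esyt1 (-0.42 ± 0.08), a membrane tether, 2310022B05Rik (-0.40 ± 0.08), Hip1 (-0.36 ± 0.07), an endocytic adaptor, and Smarcc2 (-0.31 ± 0.07), a subunit of the BAF chromatin remodelling complex, also fell. Among the abundant genes named here the adjusted p lay between 0.0049 for Itgb5 and 0.0495 for Smarcc2.

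Immediate early genes, which growth factors and calcium induce within minutes, were lower where they passed. Of the 32 members in this list 4 fell (0.609% of all members did), 0 rose and 28 did not pass. The median log2 fold change was -0.15 against -0.01 over all members. Fos, a subunit of the transcription factor AP-1, stood at 25.1, 16.5 and 15.3 CPM with PNU and at 60.0, 64.5 and 64.1 CPM with DMSO (-1.72 ± 0.25, adjusted p = 0.00929). Egr1, a zinc finger factor induced through ERK, stood at 123.7, 73.0 and 73.8 CPM against 229.8, 228.2 and 229.5 CPM (-1.33 ± 0.19), and Ier2 at 73.0, 49.0 and 50.4 CPM against 163.9, 161.4 and 160.2 CPM (-1.48 ± 0.18). In all 3 genes replicate 1 was the highest PNU library and still far below DMSO. Arc, a gene of synaptic activity, had the other order, with 27.9, 40.5 and 40.7 CPM against 72.0, 69.3 and 71.0 CPM (-0.95 ± 0.18). Other members of the list were higher in some or all PNU libraries. Nr4a1, an orphan nuclear receptor, stood at 116, 98.9 and 99.5 CPM against 87.1 to 89.8 CPM, Atf3, a stress-induced factor, at 6.32, 3.11 and 2.84 CPM against 2.22 to 2.34 CPM, and Jun, the partner of Fos, at 60.7, 48.3 and 46.8 CPM against 49.6 to 51.2 CPM. In total 16 of the 32 lay wholly below DMSO and 5 wholly above, against 25.2% and 14.8% of all members.

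The 250 bases before the RefSeq start sites (GRCm38.p6 promoter table) were searched for 3 motifs of growth factor and calcium responses on both strands: the CArG box bound by serum response factor, the cAMP response element TGACGTCA and the AP-1 site TGANTCA. For 25 of the 32 immediate early members the table holds 32 promoters. A CArG box occurred in 6 of these, from 3 genes, against 1.47% of all promoters. Of the 6, 4 were promoters of Egr2, some of which overlap each other. The cAMP response element occurred in 2 of the 32 against 1.55%, and the AP-1 site in 2 of the 32 against 6.75%. The stretches of Zfp36 and Egr2, which had the larger fold changes of the 3, are shown, 5′ to 3′ on the strand of the gene, with the CArG box in capitals.
Zfp36: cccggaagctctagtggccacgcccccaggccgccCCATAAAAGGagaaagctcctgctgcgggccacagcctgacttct
Egr2: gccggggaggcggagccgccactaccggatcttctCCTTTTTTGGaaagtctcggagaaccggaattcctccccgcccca
The first lies at chr7:28379242-28379321 on the minus strand with its box at -58 to -49 from the start, and the second at chr10:67537459-67537538 on the plus strand with its box at -72 to -63. Zfp36, an RNA-binding protein that destabilises inflammatory transcripts, stood at 90.3, 58.2 and 59.0 CPM with PNU and 140 to 144 CPM with DMSO (-1.03 ± 0.28, adjusted p = 0.115). Egr2, a zinc finger factor, stood at 8.48, 8.41 and 9.06 CPM against 20.8 to 22.6 CPM (-1.31 ± 0.54, adjusted p = 0.272). In both the groups were apart but the test was not passed. The third gene with a box, Srf, which encodes serum response factor itself, stood at 80.3, 98.1 and 105 CPM against 108 to 113 CPM. Of the 4 fallen genes only Fos has an entry in the promoter table, and none of the 3 motifs occurred in its window, which says only that these letters are not there.

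Negative feedback genes of the ERK pathway showed 2 falls among 18 members (0.609% of all members fell), 0 rises and 16 that did not pass (median -0.05). Spry4, a Sprouty inhibitor of receptor tyrosine kinase signalling, stood at 9.40, 11.4 and 12.0 CPM with PNU and at 24.02, 24.4 and 23.04 CPM with DMSO (-1.11 ± 0.14, adjusted p = 0.00524). Dusp6, the phosphatase that inactivates ERK, stood at 16.2, 21.8 and 20.5 CPM against 31.96, 32.3 and 33.2 CPM (-0.72 ± 0.12). In both, replicate 1 was the farthest from DMSO. Across the list the PNU libraries went different ways: replicate 1 was the lowest of all 6 libraries for 14 of the 18 genes, against 29.3% of all members. Dusp4, a nuclear phosphatase of the same family, stood at 30.5, 94.5 and 92.7 CPM against 41.2 to 42.4 CPM, and Etv4, an ETS factor downstream of ERK, at 10.5, 34.5 and 32.8 CPM against 20.1 to 20.3 CPM. Replicate 1 lay below and replicates 2 and 3 above DMSO for 9 of the 18, as they did for 1666 of the 12798 members.

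**Figure D3:**
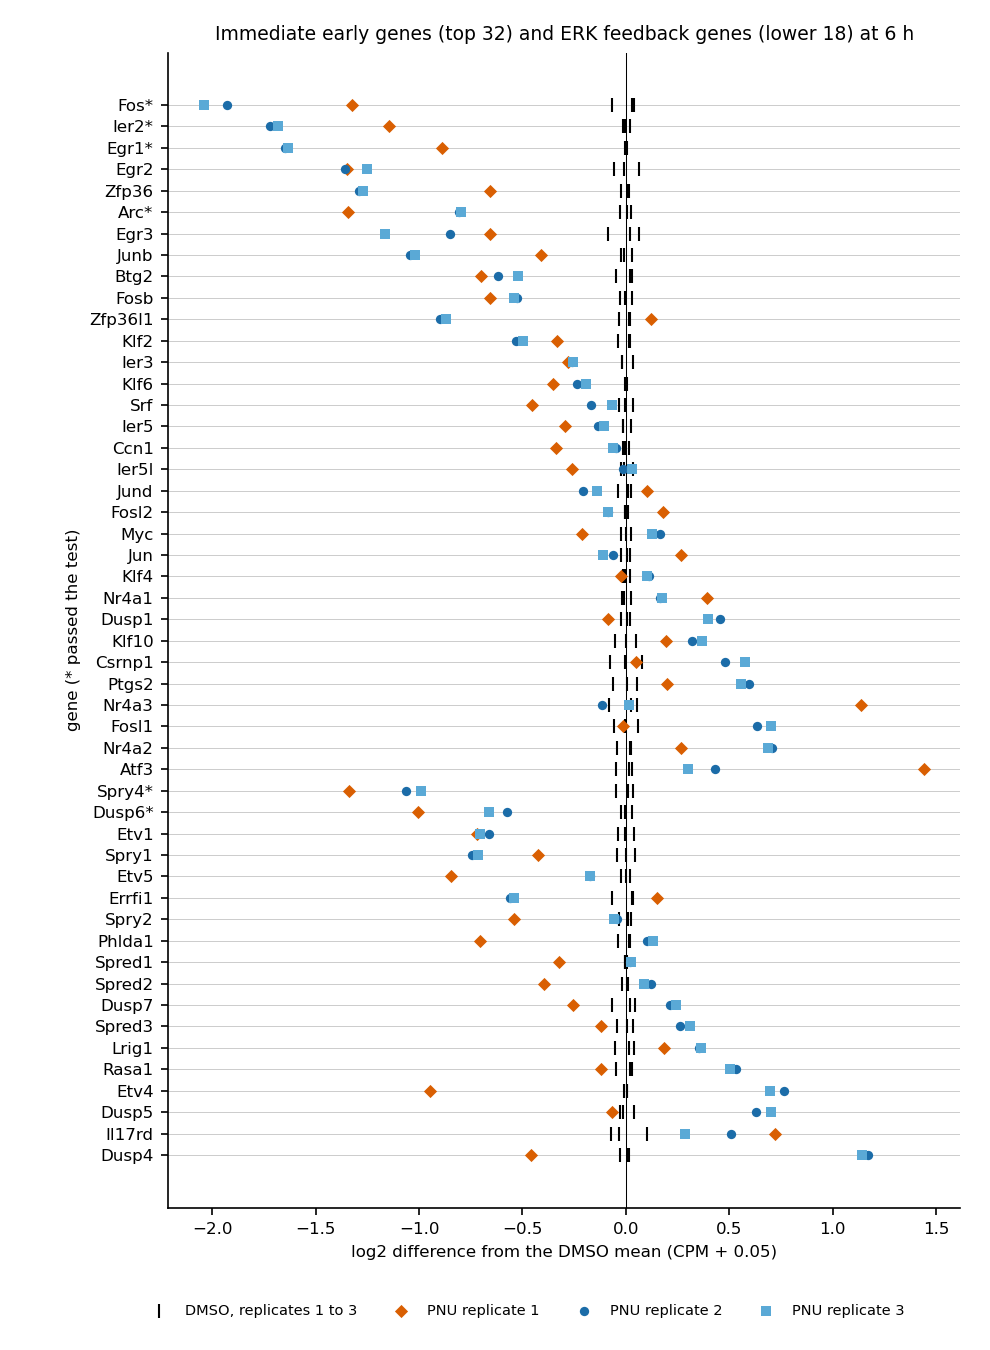
Log2 difference from the DMSO mean (x axis) in each library for the 32 immediate early members and, below them, the 18 ERK feedback members (y axis, ordered by fold change within each list; asterisks mark genes that passed). Fos, Ier2, Egr1, Arc, Spry4 and Dusp6 lie wholly below DMSO, while for Dusp4 and Etv4 replicate 1 lies below and replicates 2 and 3 above.

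Egfr, the EGF receptor, rose, with 48.3, 43.3 and 42.6 CPM against 28.0, 29.5 and 28.4 CPM (log2 0.66 ± 0.11, adjusted p = 0.0192), and was the 1 of 8 members of the EGF family and receptor list to pass. Among its ligands, Hbegf stood at 30.9, 57.9 and 56.3 CPM against 24.5 to 24.8 CPM (0.99 ± 0.62, adjusted p = 0.487), and Ereg at 31.9, 55.8 and 52.6 CPM against 32.9 to 34.9 CPM. Replicates 2 and 3 were above all DMSO libraries in both, while replicate 1 was above them for Hbegf and below them for Ereg. The ligand Egf overlapped (2.32, 1.27 and 1.46 CPM against 1.13 to 1.57 CPM), and Nrg1, a neuregulin, was close to DMSO (22.6, 26.8 and 26.8 CPM against 24.7 to 25.2 CPM). Erbb2, the receptor that pairs with Egfr, stood at 65.8, 63.4 and 58.5 CPM against 88.8 to 96.3 CPM (-0.54 ± 0.12, adjusted p = 0.0572).

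Genes of peptide hormones and their receptors held 5 called genes among 19 members, 2 risen and 3 fallen, against 0.641% and 0.609% of all members. Wholly below DMSO lay 13 of the 19, against 25.2% of all members. The median log2 fold change of the 19 was -0.90, and -0.45 over the 28 tested genes of the list. Among the members, Ramp2 and Agtr1b reached 1 CPM in DMSO libraries only, so they had to lie below DMSO. In the calcitonin family, Ramp3, the accessory protein that turns the receptor Calcrl towards adrenomedullin, rose while Calcrl itself fell. Ramp3 stood at 5.87, 4.14 and 4.80 CPM with PNU and 1.29, 1.11 and 1.16 CPM with DMSO (2.07 ± 0.22, adjusted p = 0.00276), and Calcrl at 12.0, 14.1 and 14.6 CPM against 26.7, 27.8 and 29.6 CPM (-1.03 ± 0.16, adjusted p = 0.0131). Ramp2, the alternative accessory protein, stood at 0.755, 0.824 and 0.721 CPM against 1.76, 2.14 and 1.83 CPM, and the ligand Adm at 41.6, 31.0 and 31.3 CPM against 63.3 to 67.8 CPM, neither of which passed. Apln, the vascular peptide apelin, fell from between 29.7 and 30.1 CPM to 16.5, 14.9 and 14 CPM (-0.97 ± 0.10, adjusted p = 0.00276), with no overlap and little spread in either group. The angiotensin genes Agt (15.9, 2.94 and 3.10 CPM against 28.7 to 31.8 CPM) and Agtr1b (0.913, 0.109 and 0.141 CPM against 1.17 to 1.62 CPM) were below DMSO in every PNU library without passing.

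Of the nicotinic and choline genes 10 were members, of which Slc5a7 fell and 9 did not pass. Slc5a7, the high-affinity choline transporter of cholinergic cells (ENSMUSG00000023945, chr17:54273594-54299034), stood at 19.0, 16.7 and 17.4 CPM with PNU and at 41.1, 43.8 and 41.6 CPM with DMSO (-1.24 ± 0.14, adjusted p = 0.00276). The PNU libraries were alike and all under the lowest DMSO library by more than 2-fold. Slc44a1, a choline transporter of another family that was singled out after its values were seen, stood at 53.5, 42.6 and 42.1 CPM against 76.0 to 77.3 CPM and fell by 0.72 on the log2 scale. Chrna7, the receptor gene of the agonist, was scarce in these cultures and is no member, with 0.58, 0.591 and 0.611 CPM against 0.316, 0.34 and 0.458 CPM (0.68 ± 0.43, adjusted p = 0.489). Tmem35a, a chaperone of α7 receptor assembly, stood at 9.89, 15.0 and 14.8 CPM against 21.5 to 22.3 CPM (-0.71 ± 0.17, adjusted p = 0.0721), and Ric3, another such chaperone, at 3.07, 2.44 and 2.70 CPM against 1.59 to 2.08 CPM (0.59 ± 0.18, adjusted p = 0.147).

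Axon guidance genes moved both ways, with 2 risen and 2 fallen among 43 members, against 0.641% and 0.609% of all members (list median -0.06). Sema5b, a transmembrane semaphorin, stood at 3.41, 3.11 and 2.92 CPM with PNU and at 0.722, 0.643 and 0.687 CPM with DMSO (2.21 ± 0.17, adjusted p = 0.000323), with PNU libraries close together. It reached 1 CPM in PNU libraries only, so it had to lie above DMSO. Plxna4, a receptor that transduces semaphorin signals, stood at 40.9, 31.1 and 33.2 CPM against 13.3, 13.6 and 13.1 CPM (1.41 ± 0.23). Sema3c and Epha7, an ephrin receptor (5.18, 6.56 and 6.13 CPM against 9.76 to 10.4 CPM), fell. The semaphorin coreceptor Nrp1 stood at 173, 132 and 133 CPM against 175 to 182 CPM and did not pass.

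In the Wnt list 2 of 34 members rose and 0 fell, against 0.641% and 0.609% of all members. The risen genes were Wnt4 and Lgr4, an R-spondin receptor that strengthens Wnt signals (38.8, 42.0 and 44.0 CPM against 30.9 to 31.1 CPM). The list median was 0.31, with medians of 0.112, 0.402 and 0.428 in PNU replicates 1, 2 and 3. Wnt9a stood at 6.46, 8.36 and 7.45 CPM against 2.76 to 3.72 CPM (adjusted p = 0.0769), Wls, which carries Wnt ligands to the cell surface, at 278, 301 and 298 CPM against 216 to 222 CPM (adjusted p = 0.0848), and Axin2, a target and inhibitor of the pathway, at 1.23, 2.75 and 2.85 CPM against 0.88 to 1.06 CPM. All PNU libraries were above DMSO in these 3 genes. Rspo2, an R-spondin ligand, stood at 134, 47.0 and 47.5 CPM against 186 to 190 CPM, and so lay below DMSO in all PNU libraries.

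In the TGF-β and BMP list 1 of 54 members rose and 3 fell, against 0.641% and 0.609% of all members. Inhbb, the activin βB chain, rose from 4.35, 3.63 and 5.11 CPM to 9.56, 9.28 and 10.1 CPM (1.16 ± 0.16), and Ltbp4, which anchors latent TGF-β in the matrix, fell from 154.8, 156.8 and 155.8 CPM to 79.6, 82.1 and 86.0 CPM (-0.90 ± 0.15). Kcp and the scarce Fstl4, a follistatin-like protein (0.369, 0.171 and 0.314 CPM against 1.04 to 1.44 CPM), also fell. Fstl4 reached 1 CPM in DMSO libraries only, so it had to lie below DMSO. Grem1, a secreted BMP antagonist, stood at 6.46, 103.6 and 99.8 CPM against 10.8 to 11.0 CPM, which put replicate 1 under and replicates 2 and 3 far above DMSO. In the Notch list 1 of 19 members fell, the coactivator Maml3 (18.1, 14.1 and 15.7 CPM against 25.9 to 27.7 CPM), and Rbpj, the DNA-binding partner of Notch, stood at 166, 159 and 161 CPM against 222 to 226 CPM (-0.45 ± 0.11, adjusted p = 0.0748). Hes1, a target of the pathway, stood at 36.0, 42.5 and 43.5 CPM against 53.1 to 57.5 CPM (adjusted p = 0.0827), while Hey2, another, stood at 4.20, 2.80 and 2.68 CPM against 1.36 to 1.57 CPM (adjusted p = 0.0868).

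Fat and bone lineage genes were below DMSO in most cases. Of 9 members in the adipocyte list 1 fell (Adipoq) and 8 did not pass, with a median of -0.93. Of these 9, 8 lay wholly below DMSO, against 25.2% of all members. Adipoq and Plin1, another member, reached 1 CPM in DMSO libraries only, so they had to lie below DMSO. Pparg and Cebpa, the master regulators of fat cells, stood at 19.4, 32.9 and 29.7 CPM against 41.2 to 44.5 CPM (adjusted p = 0.0731) and at 19.0, 18.8 and 20.1 CPM against 49.5 to 49.7 CPM (adjusted p = 0.114). Of 8 members in the osteoblast list Sp7 fell and 7 did not pass, with a median of -0.46. Runx2, which acts upstream of Sp7, stood at 31.0, 32.7 and 33.5 CPM against 40.5 to 44.2 CPM. Among the 12 transcription factors and cadherins of mesenchymal transition 8 lay wholly below DMSO, against 25.2% of all members. The medians were -0.365, -0.35 and -0.328 in the 3 PNU libraries. In edgeR 0 of the 12 passed and 7 had an unadjusted p under 0.05, while DESeq2 called 3 (757 of the 12798 members) and limma-voom 0. Snai1 stood at 60.9, 55.2 and 58.5 CPM against 83.3 to 89.2 CPM (adjusted p = 0.0748) and Snai2 at 37.1, 43.6 and 40.7 CPM against 66.4 to 69.5 CPM.

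Matrix genes differed between the PNU libraries. Dcn, the collagen-binding proteoglycan decorin, fell from 52.1, 54.6 and 54.5 CPM to 15.8, 29.1 and 28.5 CPM (-1.12 ± 0.23, adjusted p = 0.0467) and was the 1 of 10 members of the leucine-rich proteoglycan list to pass. The list medians were -0.101, -1.268 and -1.374 in PNU replicates 1, 2 and 3. Podn, another of these proteoglycans, stood at 26.1, 2.18 and 1.94 CPM against 8.73 to 9.38 CPM, above DMSO in replicate 1 and below in the others. Among 29 collagen chains Col15a1 fell and 28 did not pass. Col6a1 and Col6a2, chains of the microfibrillar collagen VI, stood at 3197, 1234 and 1255 CPM against 3923 to 3958 CPM and at 1779, 480.6 and 488.9 CPM against 2224 to 2270 CPM, while Col5a2, a chain of collagen V, stood at 1660, 2742 and 2779 CPM against 1397 to 1429 CPM.

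Some smooth muscle and adhesion genes rose. In the pericyte and smooth muscle list 2 of 12 members rose and 0 fell, against 0.641% and 0.609% of all members (list median 0.32). Cnn1, the calponin of smooth muscle, stood at 27.7, 35.7 and 36.7 CPM against 15.7, 15.9 and 15.7 CPM (1.10 ± 0.22), and Mcam was the other. Tagln, transgelin, stood at 359.2, 443.8 and 421.9 CPM against 233.1 to 245.6 CPM (adjusted p = 0.0748), and Acta2, smooth muscle actin, at 2008, 2405 and 2405 CPM against 1622 to 1669 CPM (adjusted p = 0.109). Of the 12 members 6 lay wholly above DMSO and 1, Des, wholly below, against 14.8% and 25.2% of all members. Replicate 1 lay above and replicates 2 and 3 below all DMSO libraries for Notch3 (233.4, 68.1 and 68.5 CPM against 199.7 to 207.7 CPM) and for Pdgfrb. Myh11 was far above DMSO in replicate 1 alone (56.03, 17.05 and 19.81 CPM against 17.12 to 19.76 CPM). Among 31 members of the basement membrane and adhesion list Itgb5 and Itga11, a collagen-binding integrin chain (82.3, 41.1 and 44.2 CPM against 22.2 to 24.6 CPM), rose. Krt19, a keratin of simple epithelia, rose from 33.6, 31.3 and 33.2 CPM to 41.6, 65.3 and 66.8 CPM, and was the 1 of 4 members of the epithelial list to pass. Hspb1, a small heat shock protein that protects actin filaments, rose from 26.1 to 27.2 CPM up to 35.9, 52.3 and 52.6 CPM, and 18 of the 19 heat shock members did not pass.

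Of the cholesterol synthesis genes none passed, although most were above DMSO and the most so in PNU replicate 1. Of the 26 members 25 had a positive fold change (49.3% of all genes tested did), and the median was 0.45. Wholly above DMSO lay 17 and wholly below 0, against 14.8% and 25.2% of all members. The count called was 0 in edgeR, where 13 had an unadjusted p under 0.05, all higher. DESeq2 called 7 (757 of the 12798 members) and limma-voom 0. Without PNU replicate 1 edgeR called 1 of the 26, where 800 of the 12798 members were called. The medians were 0.814 in replicate 1 and 0.153 and 0.174 in replicates 2 and 3, and replicate 1 was the highest of all 6 libraries for 24 of the 26, against 18.7% of all members. Fdps, which makes farnesyl diphosphate, stood at 91.8, 57.6 and 54.8 CPM with PNU and at 40.4 to 41.1 CPM with DMSO (0.75 ± 0.18, adjusted p = 0.0721), so that all PNU libraries were above DMSO. Sqle, squalene epoxidase, stood at 235, 124 and 126 CPM against 120 to 122 CPM, so that replicates 2 and 3 were only just above DMSO.

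Hmgcs1, the synthase of an early step of the pathway, stood at 188, 94.1 and 89.3 CPM with PNU and at 86.6, 83.5 and 89.8 CPM with DMSO, so that replicate 1 alone was far above DMSO. The sterol regulatory element TCACNCCAC, through which sterol-sensing SREBP factors act, was searched on both strands in the same 250 bases and occurs in 1.05% of all promoters. Of the 26 genes 19 had a RefSeq promoter, and only that of Hmgcs1 held it. The stretch around it is shown because it is the only such match in the list, with the element in capitals.
Hmgcs1: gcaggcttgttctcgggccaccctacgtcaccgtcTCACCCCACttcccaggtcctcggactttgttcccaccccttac
It lies at chr13:119690179-119690257 on the plus strand, with the element at -137 to -129 from the start.

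**Figure D4:**
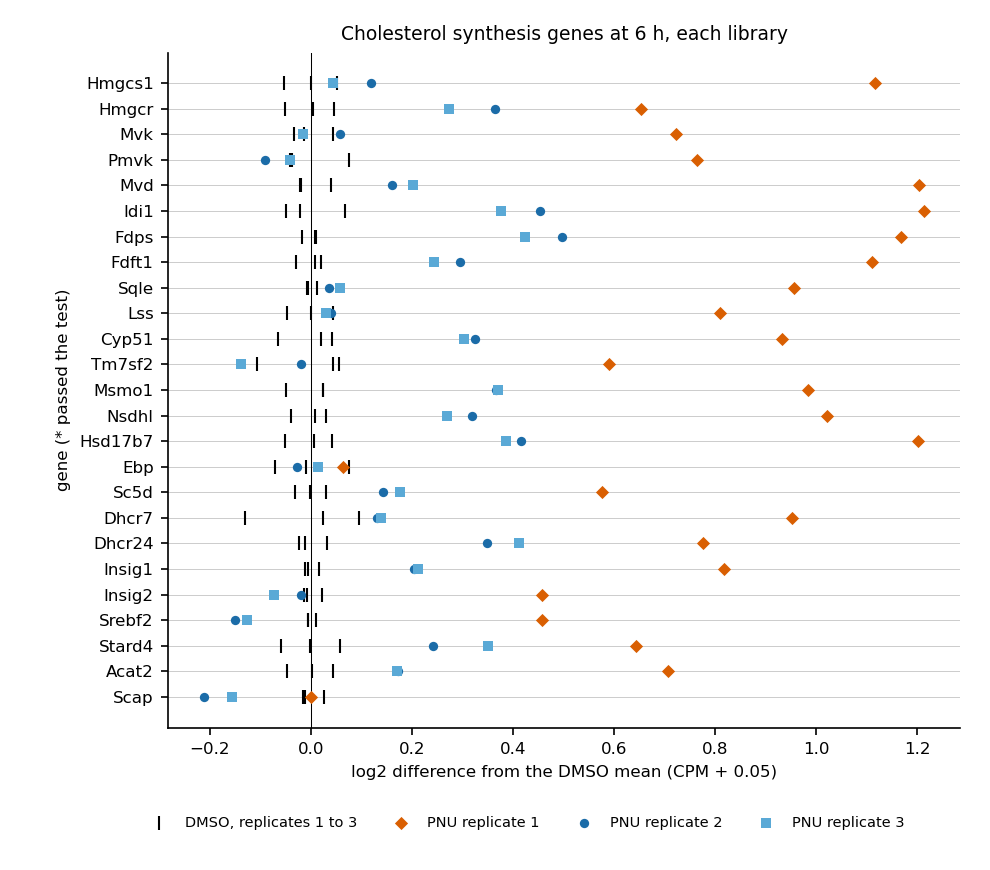
Log2 difference from the DMSO mean (x axis) in each library for 25 of the 26 cholesterol synthesis members (y axis); no gene passed the test. Over all 26, PNU replicate 1 is the highest library for 24 (18.7% of all members). Replicates 2 and 3 both lie above all DMSO libraries for 17 (4316 of the 12798 members).

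Of 34 glycolysis and hypoxia members 19 lay wholly above DMSO, against 14.8% of all members. Replicate 1 was the highest library for 20, against 18.7% of all members. Replicates 2 and 3 lay below DMSO for 11 of the 34, as they did for 5278 of the 12798 members. The list median was 0.24. In edgeR 0 passed and 13 had an unadjusted p under 0.05, while DESeq2 called 10 (757 of the 12798 members) and limma-voom 1. Pgk1, a glycolytic kinase, stood at 516.8, 558.2 and 551.0 CPM against 355.0 to 362.0 CPM (0.61 ± 0.13, adjusted p = 0.0511), Hk2, a hexokinase, at 70.9, 69.6 and 73.5 CPM against 44.2 to 46.3 CPM, and Vegfa, a hypoxia-induced vascular growth factor, at 311.2, 268.4 and 264.2 CPM against 179.2 to 186.7 CPM. In these 3 genes all PNU libraries were above DMSO and close to each other.

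Cell-cycle genes went in opposite directions in the PNU libraries. The medians of the 42 G2 and M phase members were -0.114, 0.48 and 0.457 in replicates 1, 2 and 3, and those of the 45 S phase members -0.27, 0.233 and 0.2. Replicates 2 and 3 lay above all DMSO libraries and replicate 1 below all of them for 32 of the 42 and 33 of the 45, as they did for 1666 of the 12798 members. None of these genes passed (edgeR 0; 2 and 2 at an unadjusted p under 0.05; 0 in DESeq2 and limma-voom), although all 42 G2 and M phase genes had a positive fold change. Mki67, the proliferation antigen, stood at 63.1, 112 and 113 CPM with PNU and at 74.5, 79.3 and 83.3 CPM with DMSO, and Mcm5, a subunit of the replicative helicase, at 42.8, 62.9 and 64.0 CPM against 52.4 to 54.9 CPM. Ccnd1, the cyclin of G1 phase, stood at 1029, 1685 and 1705 CPM against 1184 to 1189 CPM. Without PNU replicate 1 edgeR called 2 of the 42 G2 and M phase genes, both risen, where 800 of the 12798 members were called. With DMSO replicate 3 of 2 h removed from the fit as well it called 40, where 4225 of the 12798 members were called. For the S phase genes these counts were 1 and 19 of 45.

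Interferon and MHC class I genes had the reverse order. Of 28 members 1 fell and 27 did not pass, and the medians were 0.074, -0.603 and -0.547. Replicate 1 lay above and replicates 2 and 3 below all DMSO libraries for 14 of the 28, against 1179 of the 12798 members. Nlrc5, the transactivator of MHC class I genes, fell, with 2.32, 1.26 and 1.11 CPM against 4.58, 4.74 and 4.63 CPM (-1.56 ± 0.30, adjusted p = 0.036). Its targets B2m (453, 361 and 352 CPM against 469 to 484 CPM) and Tap1 (42.1, 22.2 and 22.9 CPM against 32.2 to 35.2 CPM) did not pass.

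**Figure D5:**
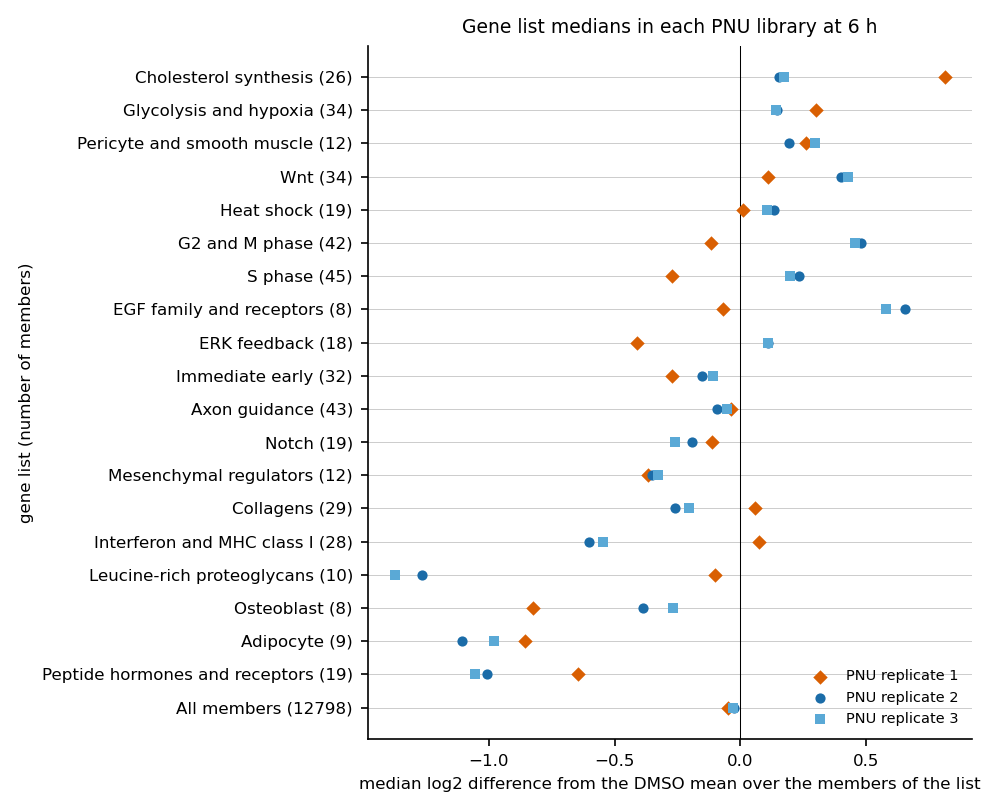
Median log2 difference from the DMSO mean (x axis) over the members of each of 19 gene lists and over all members (y axis, number of members in brackets), with a marker for each PNU library. Adipocyte, mesenchymal regulator and peptide hormone lists lie below 0 in all PNU libraries, while the cell-cycle, interferon and collagen lists differ in sign between replicate 1 and replicates 2 and 3.

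Transcription factors of the retinal progenitor and glial state separated PNU replicates 2 and 3 from all other libraries. Pax6, the regulator of eye development, stood at 0.281, 12.2 and 12.6 CPM with PNU and at 0.113, 0.0945 and 0.141 CPM with DMSO (adjusted p = 0.0848). Six3, a partner in eye field formation, stood at 0.105, 10.7 and 10.6 CPM against at most 0.0705 CPM, and Sox2, a stem cell factor that mature Müller glia keep, at 0.0878, 9.39 and 9.39 CPM against 0 CPM in all 3 DMSO libraries. These genes are no members, since they reached 1 CPM in 2 libraries only, and Six3 and Sox2 were singled out after their values were seen. Lin28a, an RNA-binding protein of reprogramming glia, was 0 in all 6 libraries, which allows up to 0.0466 to 0.0677 CPM. Of 24 genes in the retinal progenitor list 5 were members, and 0 passed (edgeR; 2 at an unadjusted p under 0.05, 1 in DESeq2, 0 in limma-voom). Sox11, a factor of progenitors and young neurons, stood at 0.896, 3.48 and 3.51 CPM against 0.907 to 1.16 CPM, and Tubb3, neuronal tubulin, at 52.5, 22.7 and 21.8 CPM against 15.7 to 18.1 CPM. The part of a difference between cultures in these values was not tested.

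The members of largest difference from DMSO in replicates 2 and 3 were chosen by that difference and carry no test here. In several of them, such as Igfbp2, Kcp, Ptn and Cxcl14, replicate 1 also lay well apart from DMSO, on the same side. Cxcl14, a chemokine of epithelia, stood at 5.99, 391.3 and 377.7 CPM with PNU and at 1.38 to 1.53 CPM with DMSO. Itga3, a laminin-binding integrin chain, stood at 6.99, 78.3 and 80.2 CPM against 3.23 to 3.89 CPM, and Pdpn, podoplanin, at 0.544, 16.4 and 16.4 CPM against 0.68 to 1.23 CPM. Among the 10 lower genes were Hp, the haemoglobin-binding protein haptoglobin, at 48.0, 2.58 and 2.18 CPM against 57.7 to 59.8 CPM, and Ptn, the growth factor pleiotrophin, at 104, 16.2 and 16.7 CPM against 265 to 280 CPM. Of the 20 such genes (10 higher and 10 lower, at a mean of 5 CPM or more in one group) Igfbp2, Asb5 and Kcp were called.

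Other genes set PNU replicate 1 apart from all 5 other libraries, and these too are a description. It was at least 2-fold above all others for 50 members and at least 2-fold below for 33. Galnt16, a glycosyltransferase that starts mucin-type chains, stood at 30.2 CPM there and at 3.12 to 4.01 CPM elsewhere, and Serpina3n, a protease inhibitor of reactive astrocytes, at 46.2 CPM against 10.6 to 12.3 CPM. Bcl3, a cofactor of NF-κB, was highest in replicate 1 (24.98 CPM) and lowest in the remaining PNU libraries (3.37 and 3.42 CPM), with DMSO between them (6.65 to 7.67 CPM). Ptprz1, a receptor phosphatase of glia, and Pcsk6, a proprotein convertase, were also highest there, at 24.5 and 83.3 CPM. Lowest there were Mmp3, a matrix metalloprotease (1.12 CPM against 4.08 to 11.9 CPM), Dkk2, a Wnt modulator (2.12 against 7.43 to 10.6 CPM), Lgr6, an R-spondin receptor (32.3 against 103 to 152 CPM), Col2a1, a cartilage collagen (3.69 against 12.6 to 17.2 CPM), and Angpt1, a vascular ligand (4.74 against 12.1 to 16.8 CPM).

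The aryl hydrocarbon receptor list held 8 members, of which Cyp1a1 fell and 7 did not pass. Cyp1a1, the cytochrome that this receptor induces, was scarce, at 0.544, 0.187 and 0.11 CPM with PNU and 1.42, 1.15 and 1.66 CPM with DMSO (-2.33 ± 0.48, adjusted p = 0.0474). Cyp1b1, a related target, stood at 69.7, 41.8 and 39.0 CPM against 123 to 125 CPM without passing (-1.29 ± 0.39, adjusted p = 0.143). Both lay wholly below DMSO, which for Cyp1a1 followed from the choice of members, since it reached 1 CPM in DMSO libraries only. The core GCGTG of the receptor's response element occurs in 28.2% of all promoters and in 4 of the 6 list members in the RefSeq table. The stretch of Cyp1a1, the fallen gene, is shown with that core in capitals.
Cyp1a1: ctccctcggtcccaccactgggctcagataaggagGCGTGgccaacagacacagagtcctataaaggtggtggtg
It lies at chr9:57697524-57697598 on the plus strand, with the core at -54 to -50 from the start.

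A set of 22 called members kept their call with any 1 of the 6 libraries left out, 9 risen and 13 fallen. The risen were Parm1, Sema5b, Kif26b, Ramp3, Flt4, Itgb5, Cd93, a receptor of endothelium (1.70, 1.77 and 1.86 CPM against 0.567 to 0.669 CPM), Tg, thyroglobulin, and Oacyl (2.06, 1.71 and 1.85 CPM against 0.677 to 0.775 CPM). The fallen included Slc5a7, Apln, Sp7, Trib2, Penk, Ier2, Spry4 and Ptges, the inducible prostaglandin E synthase (35.5, 23.8 and 23.4 CPM against 57.3 to 58.8 CPM). Also fallen were Dnm1, the endocytic GTPase dynamin 1 (61.9, 43.9 and 44.5 CPM against 109.1 to 110.3 CPM), Clmp, a junction adhesion protein (43.6, 42.2 and 42.1 CPM against 65.02 to 69.2 CPM), Sybu, Atxn1 and Epb41l4b. Ptgir, the prostacyclin receptor, which was called with all libraries, stood at 23.7, 24.9 and 26.0 CPM against 39.7 to 41.8 CPM. In the fit with near-identical libraries pooled, which has 1 DMSO sample at 6 h, none of the 22 was called.

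Side by side with the comparison at 2 h, which has its own DMSO libraries, 116 of the 160 called members (72.5%) had the same sign, against 68.7% of all members. Their median size of log2 fold change was 0.892 at 6 h and 0.254 at 2 h. Ramp3 and Dysf, the membrane repair protein dysferlin, were called at both times, with log2 fold changes of 2.07 and 0.49 at 6 h and 1.54 and 0.62 at 2 h. The difference between the times was tested as an interaction and passed by 6 genes (0.035% of those tested), while 1936 genes had an unadjusted p under 0.05.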

How the data were processed

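Poly(A) RNA of the cultures labelled as Müller glia was sequenced as 150-base read pairs. The deposited values are raw read counts per gene, made by the authors on GRCm38; fastp 0.23.2, STAR 2.5.2b, featureCounts of Subread 1.5.2 and DESeq2 are named per the labels' protocols and the submitters' processing notes, and the strand setting and annotation are not given in the sources used here. Overlapping or near-identical genes may share reads. No row lacked a gene. All 12 libraries entered 1 edgeR 4.0.16 quasi-likelihood fit (R 4.3.3; filterByExpr, TMM, robust estimation, 4 group means, no replicate block), because the groups then share 1 estimate of spread. The contrasts were PNU against DMSO at 6 h and its difference from 2 h, with Benjamini-Hochberg adjusted p under 0.05 over 17164 genes. CPM used library totals, and distances on the log2 scale used an offset of 0.05 CPM. The code was tested on simulated data. Named genes were the 12 largest called genes per direction at 5 CPM or more, the 10 most abundant per direction, up to 4 called genes per list, a set of marker genes, and the 5 genes per direction most particular to PNU replicate 1. The members and lists were chosen with earlier results of these data known. Deviations of same-numbered PNU and DMSO libraries at 6 h were nearly uncorrelated, and a link of PNU replicate numbers between the times was not modelled in this fit. Alternatives covered scaling, filters, DESeq2 1.42.0, limma 3.58.1 (voom), a replicate block, summed libraries and left-out libraries. A few genes are not reported here.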

Additional observations from a re-analysis of the deposited data

Results flagged for a closer look

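In 6 members the effect of PNU at 6 h differed from that at 2 h by the interaction test in edgeR (adjusted p 0.0426 to 0.0432), and all but Cxcl1 were also called at 6 h. Cxcl1, a neutrophil chemokine, was higher with PNU at 6 h (38.9, 39.1 and 39.0 CPM against 30.4, 29.9 and 30.6 CPM) and lower at 2 h (15.4, 13.5 and 12.9 CPM against 25.6, 26.6 and 20.5 CPM), a difference of 1.14 ± 0.15 on the log2 scale. For Parm1 the difference was 0.92, with log2 fold changes of 1.42 at 6 h and 0.50 at 2 h, and for Rab32, a GTPase of lysosome-related organelles, it was 0.88, with 0.63 and -0.25. For Apln it was -1.0, with -0.97 and 0.03, for Fnip2, a folliculin partner, -0.85, with -0.63 and 0.22, and for Clmp -0.78, with -0.63 and 0.15. These calls rest on the libraries used: the count of 6 became 0 when near-identical libraries were summed, with library totals or with a replicate block, and 2947 without DMSO replicate 3 of 2 h.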

How the results depend on the processing

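The count of 181 genes called at 6 h became 917 with DESeq2, 63 against a minimum fold of 1.2, 1646 with the 6 libraries alone, 1606 without DMSO replicate 3 of 2 h, 0 with near-identical libraries summed (1 DMSO sample left at 6 h; 267 at an unadjusted p under 0.05) and 22 to 1057 with 1 library of 6 h left out (the highest without PNU replicate 1, the lowest without DMSO replicate 2). The count of 6 for the difference from 2 h became 0 with library totals and with near-identical libraries summed (1965 and 226 unadjusted), 281 with DESeq2, 15 without a filter, and 0 to 2947 with 1 library left out (2947 without DMSO replicate 3 of 2 h, 141 without PNU replicate 1 of 6 h, 15 without DMSO replicate 1 of 2 h). The count for the difference was 0 without PNU replicate 2 or 3 of 2 h or of 6 h. It was also 0 without DMSO replicate 2 of 2 h and without any 1 DMSO replicate of 6 h. Without both PNU replicate 1 of 6 h and DMSO replicate 3 of 2 h, a setting chosen after seeing the data, the counts were 4981 at 6 h and 3788 for the difference. The cause was not tested. The log2 fold change of Bcl3 (0.59) ranged from -1.05 to 1.02 with 1 library left out, and was -1.05 without PNU replicate 1 and in that added setting.

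With the replicate block 296 genes were called at 6 h and 0 for the difference (1929 unadjusted). Deviations of same-numbered PNU and DMSO libraries at 6 h correlated at 0.0511, 0.0185 and 0.0268. Because the DMSO libraries were nearly identical, these values cannot show whether the numbers pair the groups. At 2 h too, PNU replicates 2 and 3 were nearly identical (coefficient of variation 0.0172) and replicate 1 stood apart (0.148 and 0.155). That likeness does not show that a number names the same culture at both times. In PNU replicates 1, 2 and 3 of 2 h Pax6 stood at 0.57, 14.91 and 14.85 CPM, the order of 6 h. Ddx3y stood at 2.23, 0.087 and 0.015 CPM there, the reverse of its order at 6 h. The main fit did not model a link of PNU replicate numbers between the times.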
